A study of Rattus norvegicus with 4 samples.

Results

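In rat granulosa cells, 76 probe sets for 69 genes had lower signal, by close to 2-fold or more, in both cultures that received an siRNA against Runx2, beyond the genes already named for this experiment. A probe set became a member if it was paired with 1 gene symbol, had a mean signal over the 4 arrays of at least 78.6, lay lower by 0.9 or more on the scale log2(signal + 16) in both same-numbered pairs, and had both Runx2 siRNA arrays below both control arrays. Symbols of 29 genes were left out by name. Of 14102 probe sets with 1 symbol that were bright enough, for 10017 genes, 105 passed (0.745%), and 29 of those, for 23 genes, carried a left-out symbol. Over all 18625 bright probe sets, with or without a symbol, 132 passed (0.709%), and 41 passed the mirror rule for higher signal (0.220%). The members were chosen by their signals on the same 4 arrays, so their differences are described here and not tested.

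The cells came from ovaries of immature female Sprague Dawley rats, 27 days old, whose follicles had been primed with PMSG, a gonadotropin preparation, for 48 h. Both groups were kept in serum-reduced medium with insulin, transferrin and selenium, and both received 10 µM forskolin for 48 h. One group of 2 cultures was transfected with 20 nM Runx2 siRNA and the other group of 2 with 20 nM of a negative (universal) control siRNA, each culture on 1 expression array. The siRNA was used to block the Runx2 expression that forskolin induces. No group without siRNA or without forskolin was analysed here.

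Granulosa cells line the ovarian follicle, make estradiol before ovulation, and turn into progesterone-making luteal cells after the surge of luteinizing hormone. Forskolin activates adenylyl cyclase and raises cAMP, the second messenger of that hormone. Runx2 is a DNA-binding protein of the Runt family, known from bone formation, which pairs with Cbfb and can activate or repress genes.

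No probe set is named Runx2 in the probe table used, so the depth of the knockdown could not be read from the arrays, and the group names come from the labels. Of 10 tested granulosa markers 6 were higher and 4 lower with Runx2 siRNA in both pairs, where 28.3% of all probe sets were lower in both. The share of all probe sets higher in both pairs was not counted. Counts of higher genes in the lists, here and below, therefore have no background share. Foxl2, an ovarian transcription factor, lay at 6255 and 6569 with Runx2 siRNA and 5311 and 5103 with control siRNA. Cyp11a1, the first enzyme of steroid synthesis, lay at 9641 and 7701 against 12150 and 10223, while Amh was dim (30.9 to 68.0). Cyp19a1, a left-out symbol, fell more, at 856 and 470 against 2249 and 1185 (-1.38 and -1.31 in the pairs). It passed the rule, where 0.709% of all probe sets did, but it was already named for this experiment. Runx2 siRNA replicate 2 had a spike-in signal 1.72 times the control mean, against 0.952 for replicate 1, and an actin 3' to 5' ratio of 1.71, against 1.42 to 1.45 on the others. Over all tested probe sets limma, fitted without a term for replicate number, gave 0 with an adjusted p under 0.05 (0.00%) and 2225 with an unadjusted p under 0.05. The count of 0 changed when such a term was added, as given in the last section. The small number of arrays limits the precision of every value, and with RNA from whole cultures, fewer cells of a type and less RNA per cell cannot be told apart.

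Some members, such as Tbx18, Foxs1, Ddr2 and Ptafr, are better known from mesenchymal cells or leukocytes than from granulosa cells. The summed signal of 6 stroma markers was 1398 and 2034 with Runx2 siRNA and 1230 and 2213 with control siRNA, and that of 5 smooth muscle markers was 678 and 1181 against 492 and 923. For 9 leukocyte markers the sums were 1121 and 1698 against 866 and 1439. None of these 3 lists was lower with Runx2 siRNA in both pairs. Levels within a list were mixed. Ptprc, the common leukocyte antigen, was dim, at 20.5 and 37.4 against 2.32 and 23.1, whereas Cd14, of monocytes, lay at 633 and 956 against 456 and 758. Of the stroma genes, Postn was dim, at 14.3 and 11.7 against 21.5 and 9.05, whereas Col3a1 lay at 730 and 783 against 719 and 1275 and Dcn at 288 and 611 against 185 and 388. Their part in the members' values was not tested.

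The median log2 difference of the 76 probe sets, Runx2 siRNA minus control, was -1.23, against 0.05 over all probe sets tested. The pair numbered 1 had a median of -1.13 and the pair numbered 2 one of -1.28. On average over both pairs the members ranged from -2.26 for Kalrn to -0.92 for Giot1, and 52 of the 76 lay at -1 or lower in both pairs. The log2 gap between the lower control array and the higher Runx2 siRNA array had a median of 0.70 and ran from 0.05 for Acsl3 to 1.94 for Gpm6b. It was at least 1 in 16 probe sets and under 0.2 in 8, so the groups were separated widely for some genes and barely for others.

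**Figure D1:**
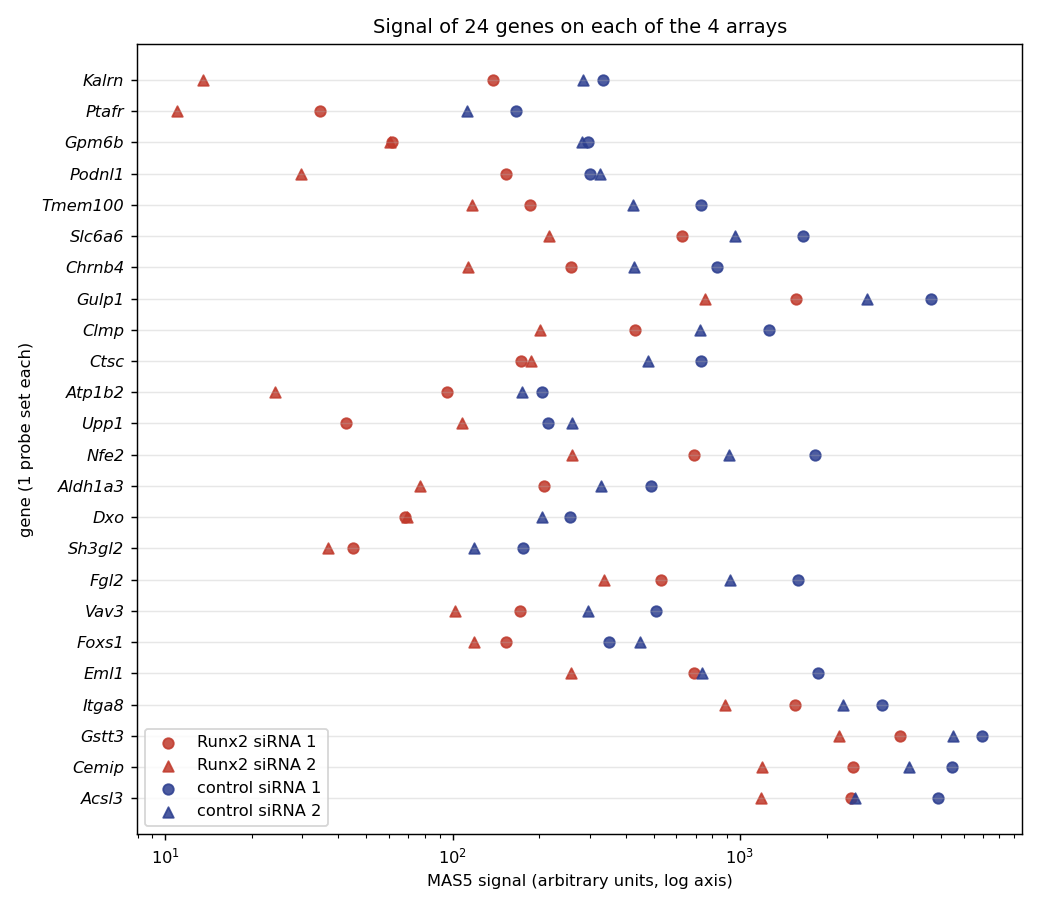
MAS5 signal (log axis) of 1 probe set for each of 24 member genes on the 4 arrays, red for Runx2 siRNA and blue for control siRNA, circles for arrays numbered 1 and triangles for those numbered 2. All red points lie left of the blue points of the same gene, by the rule, with a wide gap for Gpm6b (60.4 and 61.4 against 281 and 295) and a narrow gap for Eml1 (258 and 691 against 739 and 1875).

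Surface receptors, channels and transporters supplied 9 genes with 10 probe sets (median -1.33). Ptafr, the G protein-coupled receptor of the phospholipid platelet-activating factor, had signals of 34.5 and 11.0 with Runx2 siRNA and 166 and 112 with control siRNA, a log2 difference of -2.04 ± 0.40 (SE of the fit over all probe sets, n = 2 arrays each, as for every SE below). Both Runx2 siRNA values were in the dim range below 78.6. A brighter Ptafr probe set lay at 473 and 413 against 925 and 783, with -0.94 and -0.90 in the pairs, so the 2 probe sets had the same direction and unlike sizes. S1pr1, a receptor of sphingosine 1-phosphate, lay at 1126 and 754 against 2407 and 2497 (-1.40 ± 0.20), and its control arrays were close together.

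Chrnb4, a subunit of nicotinic acetylcholine receptors, lay at 259 and 113 against 832 and 427 (-1.70 ± 0.46). Slc6a6, the taurine transporter, had 2 member probe sets. The dimmer was at 628 and 217 against 1651 and 960 (-1.72 ± 0.52) and the brighter at 3268 and 2127 against 6763 and 4844 (-1.11 ± 0.26). In both, the arrays numbered 2 were below those numbered 1 in each group. Atp1b2, a beta subunit of the sodium pump, lay at 95.8 and 24.1 against 204 and 174 (-1.61 ± 0.50), but its other probe set, which was bright, lay at 727 and 602 against 776 and 689, a difference of only -0.09 and -0.19 in the pairs. Further members of the group were the tweety-family channel gene Ttyh2 (-1.27 ± 0.39), the glutamine transporter Slc1a5 (-1.21 ± 0.44), Il17re, a receptor subunit for an interleukin 17 cytokine (-1.13 ± 0.48), and Ddr2, a receptor kinase that binds collagen (-1.02 ± 0.27). Slc1a5 lay at 24.1 and 59.8 against 79.6 and 153. Its Runx2 siRNA values were in the dim range, as were those of the Il17re and Ddr2 member probe sets. A brighter Il17re probe set lay at 97.1 and 163 against 132 and 209, with -0.39 and -0.33 in the pairs, and its groups overlapped.

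Adhesion, matrix and secreted proteins formed the largest group by number, with 12 genes and 17 probe sets (median -1.23). Fgl2, a fibrinogen-like protein that exists as a membrane-bound prothrombin-cleaving enzyme and as a secreted form, had 4 member probe sets, the most of any member. They lay at 531 and 337 against 1587 and 925, at 1264 and 764 against 3287 and 1810, at 690 and 430 against 1758 and 971, and at 544 and 223 against 1137 and 618. Their log2 differences were -1.48, -1.30, -1.24 and -1.22, and every one of the 4 had its lowest value on the second Runx2 siRNA array and its highest on the first control array. Probe sets of 1 gene share the RNA and the arrays and are not replicates.

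Clmp, a junctional adhesion molecule of the immunoglobulin family, lay at 432 and 201 against 1262 and 726 (-1.64 ± 0.42) and, in a second member probe set, at 428 and 164 against 889 and 491 (-1.26 ± 0.49). Itga8, an integrin alpha chain, lay at 1548 and 886 against 3122 and 2289 (-1.18 ± 0.29), with a second probe set at 674 and 415 against 1281 and 930 (-1.02 ± 0.27). Another integrin alpha chain, Itga9, was at -0.97 ± 0.38. A second, dim Itga9 probe set, below the limit, ran the other way, at 44.2 and 63.2 against 11.6 and 15.6. Podnl1, a leucine-rich repeat protein of the matrix, lay at 153 and 29.7 against 301 and 325 (-1.90 ± 0.60), and its fall rested mainly on the second pair (-2.90, against -0.91 in the first). Cemip, a protein needed for the breakdown of hyaluronan, lay at 2474 and 1190 against 5455 and 3880 (-1.41 ± 0.37). The remaining genes were Ccn5, a matricellular protein (-1.42 ± 0.32), Mxra8, a transmembrane protein linked to matrix remodelling (-1.23 ± 0.21), Cpz, a carboxypeptidase of the extracellular space (-1.22 ± 0.31), the neural adhesion molecule Nrcam (-1.16 ± 0.25), the small secreted protein Tafa5 (-1.13 ± 0.31) and neuritin, Nrn1 (-1.0 ± 0.22). A second tested Tafa5 probe set had -0.33 and -0.52 in the pairs, and its groups overlapped.

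Gpm6b, a four-pass membrane glycoprotein of the proteolipid family, had the widest separation of the groups. Its signals were 61.4 and 60.4 with Runx2 siRNA and 295 and 281 with control siRNA (-1.98 ± 0.18), and in a brighter member probe set 166 and 161 against 457 and 487 (-1.44 ± 0.14). In both probe sets the 2 arrays of each group were nearly equal. Of the 3 proteolipid-family genes bright enough to test, only Gpm6b passed the rule, where 0.709% of all probe sets did. As Gpm6b is a member, its passing was fixed in advance and says nothing about the family. Gpm6a, the closest relative of Gpm6b, lay at 1238 and 1509 against 1328 and 1700 (-0.13 ± 0.17, limma adjusted p = 0.737), and Myadm at 0.22 ± 0.22 (limma adjusted p = 0.676). No p-value is given for Gpm6b, because the rule chose it on the same contrast. Over all probe sets the lowest limma adjusted p was 0.248. Tmem100, a membrane protein that acts downstream of the BMP receptor ALK1 in endothelium, lay at 186 and 117 against 733 and 425 (-1.81 ± 0.33). Of 17 tested genes of BMP and ALK1 signalling, Tmem100 included, 4 were lower and 10 higher in both pairs, with a median of 0.15. How many of all probe sets were higher in both pairs was not counted, so the 10 cannot be set against it. Over all tested probe sets 28.3% were lower in both pairs. Only Tmem100 passed the rule, where 0.709% of all probe sets did. As Tmem100 is a member, its passing was fixed in advance and says nothing about the list. Limma called none of the 17, and it called 0 of all 18625 probe sets. The ALK1 receptor gene itself, Acvrl1, was dim, at 20.8 and 1.55 against 1.08 and 2.81, and so was Eng, its co-receptor. Clec2d, a C-type lectin-like ligand of natural killer cell receptors, lay at -1.13 ± 0.14, and Aplp2, a relative of the amyloid precursor, at -1.19 ± 0.23.

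Of 8 tested genes of the platelet-activating factor list, by their brightest probe sets, 3 were lower and 4 higher in both pairs (median 0.15). Over all tested probe sets 28.3% were lower in both pairs. Of the 8, 0 passed the rule, and limma called 0, as it did over all probe sets. Ptafr enters here with its brighter probe set, which lies just outside the rule. Pla2g4a, the phospholipase that releases the precursor lipid, lay at 749 and 730 against 561 and 670 (0.26 ± 0.13, limma adjusted p = 0.470). Lpcat1, one of the acyltransferases of lysophospholipids, lay at 511 and 457 against 379 and 394 (0.31 ± 0.13, limma adjusted p = 0.430), and Lpcat3, another of them, at 6732 and 6130 against 7975 and 7354 (-0.25 ± 0.11, limma adjusted p = 0.442). Among the Runx list, Runx1 lay at 2268 and 2044 against 933 and 1653 and Cbfb at 4265 and 4237 against 3945 and 3886, and neither was lower in either pair. Of 10 tested bone targets of Runx2 4 were lower and 5 higher in both pairs (median -0.11). Mmp13 passed the rule, where 0.709% of all probe sets did, and Spp1 lay at -0.78 and -1.61 in the pairs. Both are left-out symbols, which were already named for this experiment.

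Transcription factors supplied 5 genes (median -1.37). Nfe2, a leucine zipper factor that pairs with small Maf proteins, lay at 692 and 261 against 1831 and 913 (-1.56 ± 0.53). Foxs1, a forkhead factor, lay at 153 and 119 against 350 and 447 (-1.45 ± 0.21). The 2 genes differed in how the arrays lay: the control arrays of Nfe2 were far apart with number 2 lower, and those of Foxs1 had number 2 higher. Tbx18, a T-box factor, was dim with Runx2 siRNA, at 42.1 and 51.3 against 154 and 137 (-1.37 ± 0.23). Onecut2, a homeobox factor, was at -1.30 ± 0.45, and its 3 other probe sets were also lower in both pairs, at -1.13, -1.25 and -1.0. In the same order they had -1.52, -1.65 and -1.75 in the first pair and only -0.74, -0.85 and -0.25 in the second. Giot1, a zinc finger gene induced by gonadotropins in the ovary, lay at 1555 and 1761 against 2992 and 3327 (-0.92 ± 0.12), which was the smallest difference of the 76, with close values within each group.

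Signal transduction supplied 9 genes (median -1.25). Kalrn lay at 138 and 13.5 against 333 and 284 (-2.26 ± 0.76), and the second Runx2 siRNA array alone was in the dim range. A second tested Kalrn probe set lay at 124 and 150 against 253 and 175, with -0.94 and -0.20 in the pairs. Vav3 lay at 171 and 102 against 509 and 295 (-1.45 ± 0.34). In each of these 2 genes the second Runx2 siRNA array of the member probe set had the lowest value. Gulp1, an adaptor in the engulfment of dying cells, lay at 1565 and 757 against 4617 and 2769 (-1.70 ± 0.40), with a log2 gap of 0.82 between the groups. Dusp1, a phosphatase that inactivates MAP kinases and an early target of cAMP, lay at 623 and 892 against 1437 and 2251 (-1.25 ± 0.27), with a brighter probe set at 3011 and 4862 against 5728 and 7547. Dusp14, a further phosphatase of this family, lay at 576 and 403 against 1463 and 939 (-1.25 ± 0.27). The other members were Dclk1, a microtubule-binding kinase (-1.19 ± 0.22), Iqgap2 (-1.15 ± 0.28), Avpi1, a vasopressin-induced gene (-1.14 ± 0.14), and Tesc, a calcium-binding protein (-1.04 ± 0.33).

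Genes of the cytoskeleton and membrane traffic numbered 7 (median -1.25). Eml1, a microtubule-binding protein, lay at 691 and 258 against 1875 and 739 (-1.44 ± 0.59), so the first Runx2 siRNA array almost met the second control array, while the fall was alike in the pairs (-1.42 and -1.46). Sh3gl2, an endophilin of endocytosis, lay at 44.8 and 36.9 against 176 and 119 (-1.51 ± 0.27). Csrp1, a LIM protein of actin filaments, was at -1.26 ± 0.21, the synapsin gene Syn2 at -1.25 ± 0.35, the BBSome subunit Ttc8 at -1.12 ± 0.20, Ehd3, an ATPase of endosomal recycling, at -1.08 ± 0.28 and the kinesin Kifc3 at -0.98 ± 0.35. Syn2 transcripts are best known from nerve terminals, and its 2 other tested probe sets were lower in both pairs too, at -0.95 and -0.33. The latter lay at 150 and 136 against 233 and 144, with -0.59 and -0.08 in the pairs, and its groups overlapped.

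Lipid and sterol handling supplied 6 genes (median -1.06). Acsl3, which activates long-chain fatty acids, lay at 2428 and 1180 against 4901 and 2522 (-1.05 ± 0.44). Lss, lanosterol synthase, lay at 1096 and 473 against 2262 and 1177 (-1.16 ± 0.47). In both these probe sets the higher Runx2 siRNA array lay just under the lower control array, with log2 gaps of 0.05 and 0.10. A brighter Lss probe set lay at 3724 and 1533 against 5878 and 3560, with -0.66 and -1.21 in the pairs, and its groups overlapped. Gramd1b, which moves cholesterol from the plasma membrane to the endoplasmic reticulum, was at -0.99 ± 0.34, and Stard4, a sterol carrier, at -0.98 ± 0.36. A second tested Gramd1b probe set lay at 778 and 359 against 969 and 559, with -0.31 and -0.62 in the pairs, and its groups overlapped. Aig1, a hydrolase of fatty acid esters, was at -1.07 ± 0.13 and the scramblase Plscr1 at -1.11 ± 0.18, both with wider gaps (0.87 and 0.89). All 6 had lower signal on number 2 than on number 1 in both groups.

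Small-molecule metabolism supplied 10 genes (median -1.16). Upp1, uridine phosphorylase, lay at 42.5 and 108 against 215 and 260 (-1.57 ± 0.39). Aldh1a3, which makes retinoic acid from retinaldehyde, lay at 208 and 76.9 against 489 and 329 (-1.53 ± 0.45). Gstt3, a glutathione transferase, lay at 3601 and 2204 against 6965 and 5533 (-1.14 ± 0.26). In Upp1 the low value was on the first Runx2 siRNA array, and in the other 2 genes on the second. Afmid, a formamidase of tryptophan breakdown (-1.42 ± 0.22), ribokinase, Rbks (-1.25 ± 0.15), and Ggt1, which cleaves glutathione (-1.18 ± 0.18), followed. Ppcdc, of coenzyme A synthesis (-1.13 ± 0.27), Tst, a mitochondrial sulfurtransferase (-1.07 ± 0.20), Aldh3b1, an aldehyde dehydrogenase (-0.98 ± 0.16), and Mtap, of methionine salvage (-0.96 ± 0.11), had smaller differences. Mtap lay at 876 and 812 against 1733 and 1577, and both its other probe sets were lower too, at -0.78 and -0.72.

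Peptidases, lysosomal and RNA enzymes supplied 4 genes. Ctsc, cathepsin C, which activates serine proteases of granules, lay at 173 and 187 against 731 and 477 (-1.63 ± 0.23), with a second probe set at 390 and 313 against 700 and 622. Dxo, an enzyme that removes faulty RNA caps, lay at 68.3 and 69.5 against 256 and 204 (-1.52 ± 0.21). In both genes the Runx2 siRNA arrays were close together and far from the control arrays. Xpnpep2, a membrane-bound aminopeptidase, was at -1.29 ± 0.49 and Hgsnat, a lysosomal acetyltransferase, at -1.16 ± 0.16. No role was assigned to Rnf138l1 (-1.37 ± 0.54), Bpifb6 (-1.17 ± 0.43) and Ttc39a (-1.05 ± 0.34).

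**Figure D2:**
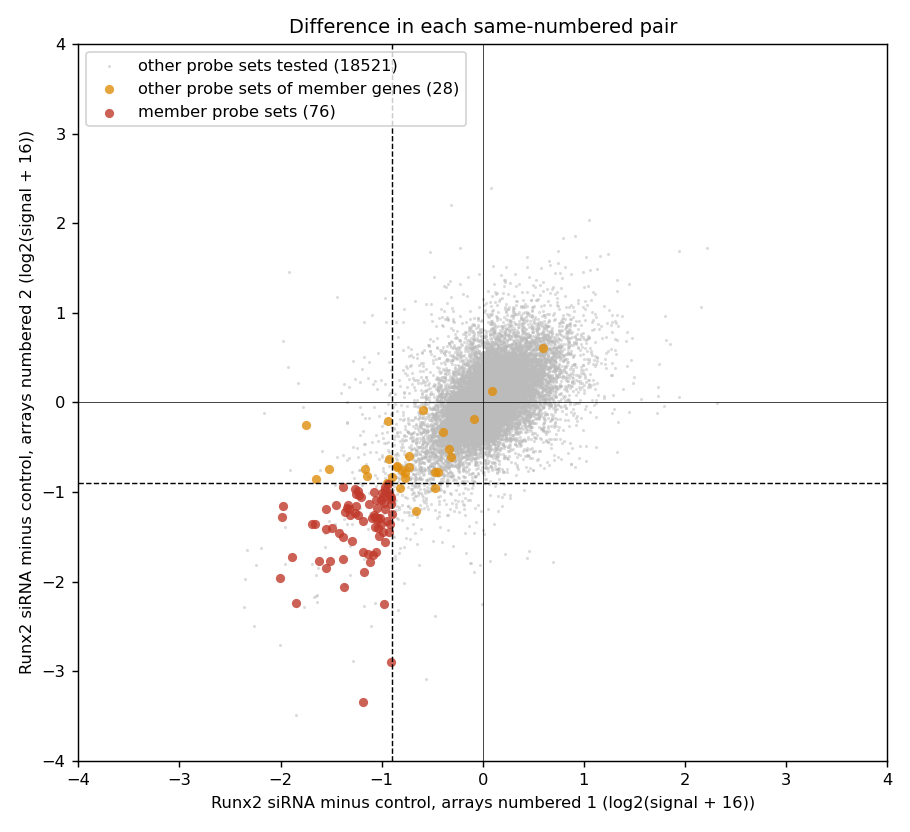
Difference of Runx2 siRNA from control on the log2(signal + 16) scale, arrays numbered 1 on the horizontal and arrays numbered 2 on the vertical axis, with dashed lines at -0.9. Red points are the 76 member probe sets, orange points the 28 other tested probe sets of the same genes, and grey points all remaining probe sets tested. The members fill the lower left corner by the rule, while 26 of the 28 orange points lie below 0 on both axes and 2 above 0 on both.

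Other probe sets of the member genes came from the same arrays and the same contrast, so they show how far probe sets of 1 gene differ and are no separate evidence. Of 42 such probe sets, 28, for 20 genes, were bright enough. Of the 28, 26 were lower in both pairs, where 28.3% of all tested probe sets were, and 20 had both Runx2 siRNA arrays below both control arrays, where 18.5% of all did. Their median difference was -0.78, nearer to 0 than that of the members. Higher in both pairs were 1 probe set of Aplp2, at 464 and 480 against 434 and 437, and 1 of Stard4, at 187 and 220 against 118 and 140. Of the 14 dim ones, 7 were lower and 3 higher in both pairs.

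**Figure D3:**
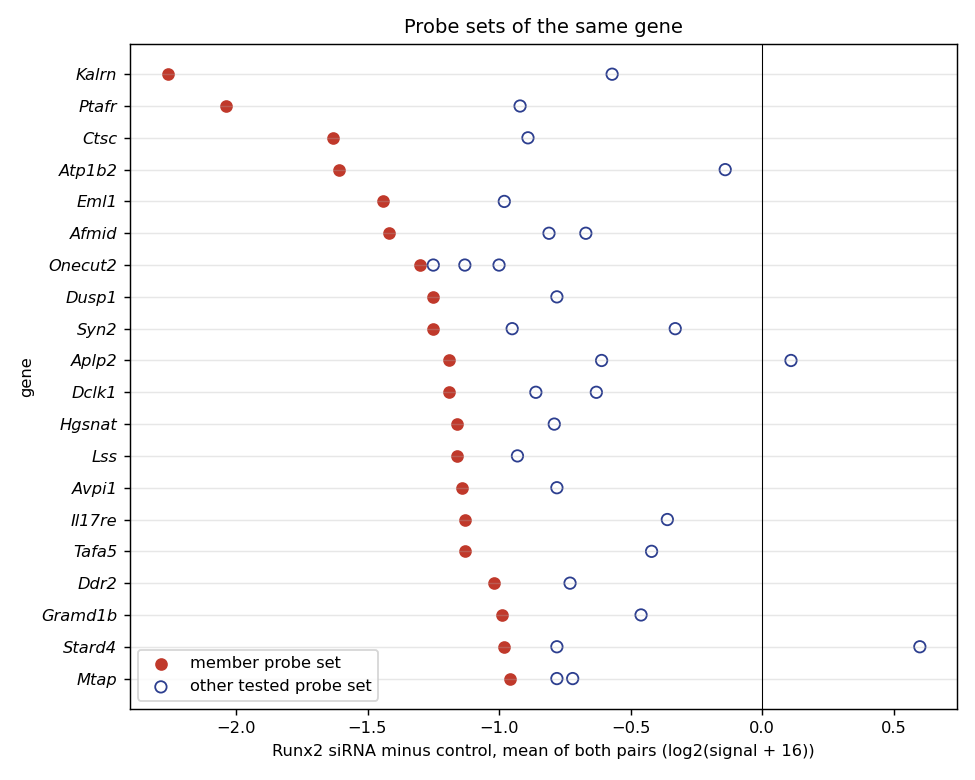
Log2 difference of Runx2 siRNA from control (mean of both pairs) for the 20 member genes that have another tested probe set, filled red for member probe sets and open blue for the others. The blue points lie to the right of the red ones, at a median of -0.78, and 1 of the 2 for Stard4 (0.60) and 1 of the 2 for Aplp2 (0.11) lie above 0.

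Replicate number moved with many members. In 57 of the 76 probe sets (75.0%) the array numbered 2 was below the array numbered 1 in both groups, against 32.0% of all probe sets tested, and in 11 (14.5%) it was above in both, against 35.2%. The median difference, number 2 minus number 1, was -0.41 with control siRNA and -0.63 with Runx2 siRNA, against 0.01 and 0.01 over all tested. The rule limits how far these differences can go, because the groups must not overlap, so the shares are a description. The members with number 2 higher in both groups were Dusp1, Csrp1, Dclk1, Upp1, Slc1a5, Il17re, Tesc, Ddr2, Ehd3, Nrcam and Giot1. Lhcgr, the luteinizing hormone receptor gene and no member, also fell between the numbers, at 5593 and 1484 with control siRNA and 4475 and 640 with Runx2 siRNA. It was among the granulosa markers lower with Runx2 siRNA in both pairs (-0.32 and -1.19), but its groups overlapped. The part of Lhcgr in the members' values was not tested.

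**Figure D4:**
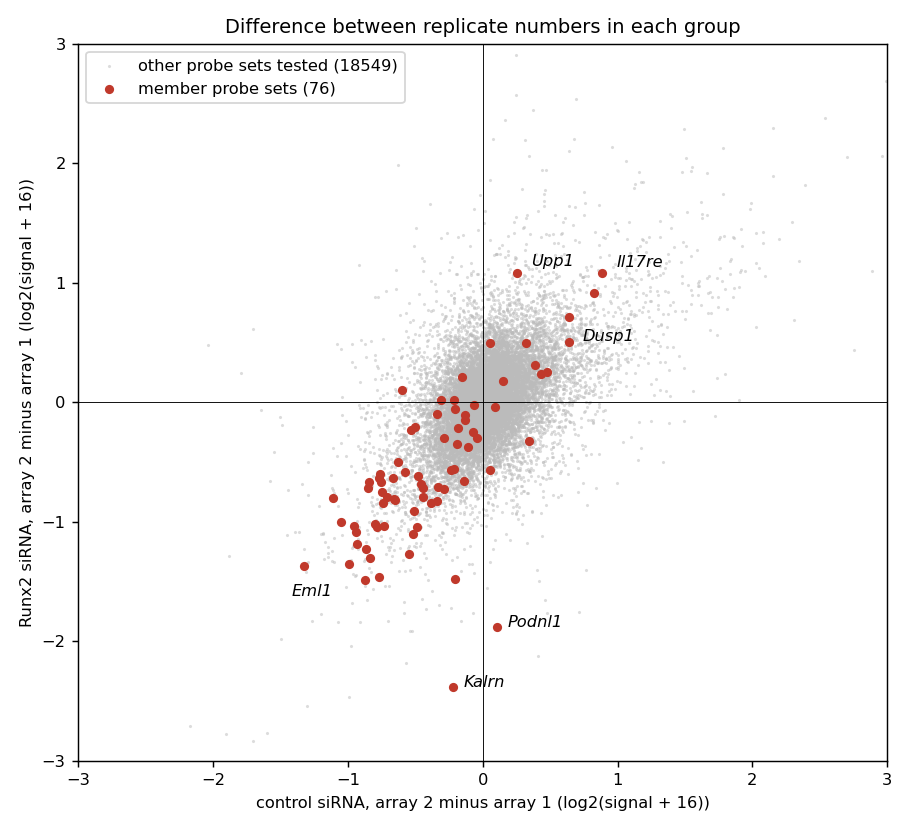
Difference between the arrays numbered 2 and 1 on the log2(signal + 16) scale, with control siRNA on the horizontal and with Runx2 siRNA on the vertical axis, members in red and all other tested probe sets in grey (8 of them outside the axes). Most red points, 57 of 76, lie in the lower left field, and Kalrn and Podnl1 lie low on the vertical axis alone (-2.38 and -1.88).

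Since the rule asks for groups that do not overlap, leaving out an array or changing the constant cannot turn the direction of a member, but it can change its size. When the second Runx2 siRNA array, with its high spike-in signal, was left out, the median was -0.97 and the values ran from -2.11 to -0.53. Without it the difference was -1.07 for Kalrn, -0.96 for Podnl1, -0.99 for Slc6a6, -0.87 for Atp1b2, -0.89 for Nfe2, -0.90 for Aldh1a3, -0.89 for Cemip, -0.78 for Itga8, -0.76 for Eml1 and -0.53 for Acsl3. Without the first control array Eml1 was at -0.78 and Acsl3 at -0.57. Without the first Runx2 siRNA array Upp1 was at -1.02, Podnl1 at -2.85 and Kalrn at -3.45. With each array left out in turn, Gpm6b ran from -2.02 to -1.95, Dxo from -1.68 to -1.37 and Ctsc from -1.93 to -1.33. With a constant of 64 in place of 16 the difference was -1.22 for Ptafr and -1.0 for Sh3gl2. In 16 probe sets the mean with Runx2 siRNA was below 78.6, where MAS5 values are less certain.

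Close to the threshold the smaller of the pair differences was 0.901 below control for Tst, 0.906 for Gramd1b and 0.906 for Aldh3b1, just inside. Just outside were the brighter probe set of Ptafr (0.899), Evi2a (0.893) and Bdh1 (0.882). The edge of the list therefore divides probe sets with nearly equal values.

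The promoters of the members were read for short motifs because Runx proteins bind the letters TGTGGT and because cAMP acts through the response element TGACGTCA. The RefSeq promoter table (GRCr8) held 52 promoters, each 300 bases from 250 before to 50 after a start, for 48 of the 69 genes. TGTGGT, on either strand, was found in 8 of the 52 (15.4%), against 17.3% of all 33469 promoters and 12.3% of 9317 promoters of other tested genes. The variant core TGCGGT was in 15.4%, against 6.39% and 9.99%. A match is a description of letters, and none of these shares was tested.

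Shown here are the stretches around TGTGGT (or ACCACA, its reverse complement) in 4 of the 8 genes, the 3 with the largest falls and Giot1, with the motif in capitals, on the gene's strand. They lie at chr5:150057154-150057204 (+) for Ptafr, chr19:40938795-40938850 (-) for Podnl1, chr6:133133630-133133685 (+) for Eml1 and chr7:10887061-10887116 (-) for Giot1. The motif of Ptafr directly follows a run of alternating letters, that of Eml1 spans the start, and Podnl1 had a further match that is not shown.
Ptafr: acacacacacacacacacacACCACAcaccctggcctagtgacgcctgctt
Podnl1: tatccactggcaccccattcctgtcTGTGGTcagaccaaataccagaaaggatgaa
Eml1: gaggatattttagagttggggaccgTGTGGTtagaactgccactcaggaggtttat
Giot1: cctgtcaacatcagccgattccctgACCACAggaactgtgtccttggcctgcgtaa

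The full cAMP element TGACGTCA, which reads the same on both strands, was found in 4 of the 52 promoters (7.69%), against 1.83% of all promoters and 3.18% of those of other tested genes. The 4 genes were Dusp1, Avpi1, Sh3gl2 and Giot1, so the Giot1 promoter held both motifs. They are shown with the element in capitals, at chr10:17184704-17184761 (+), chr1:250885581-250885638 (-), chr5:104699179-104699236 (+) and chr7:10887181-10887215 (-).
Dusp1: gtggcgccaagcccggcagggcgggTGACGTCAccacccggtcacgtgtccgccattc
Avpi1: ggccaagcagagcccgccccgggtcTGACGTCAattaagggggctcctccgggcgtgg
Sh3gl2: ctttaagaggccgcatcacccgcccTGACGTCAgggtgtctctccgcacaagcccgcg
Giot1: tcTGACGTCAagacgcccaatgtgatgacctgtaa

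The shorter element TGACG, which lies within the full one, was in 20 of the 52 (38.5%), against 21.2% and 32.3%. The AP-1 motif TGACTCA was in 7.69%, against 4.63% and 3.48%, in the genes Dclk1, Dusp14, Eml1 and Upp1. AAGGTCA, bound by NR5A receptors, was in 5.77%, against 4.61% and 2.93%, and TATAAA in 13.5%, against 14.2% and 6.56%. For the 4 genes with the full cAMP element the signal differences were -1.25 (Dusp1), -1.14 (Avpi1), -1.51 (Sh3gl2) and -0.92 (Giot1).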

How the data were processed

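The authors deposited 1 intensity per probe set and array, in linear units. Their processing notes name MAS5, and a version is not given in the sources used here. Each array's mean, trimmed by 2% at both ends, was about 500, so the authors had scaled them. Of 31099 probe sets, 57 array controls were left out, then the lowest 40% by mean signal. The members and lists were chosen with earlier results of these data known. Roles were assigned from general knowledge after the members were known. All 69 genes matched RefSeq by gene ID. Limma 3.58.1 in R 4.3.3 (two-sided, intensity trend, no term for replicate number, Benjamini-Hochberg) was fitted to log2(signal + 16) of 18625 probe sets. That scale understates changes of dim probe sets. A check of the fit on simulated data planted changes larger than the mean difference of any member. It had no shift shared by replicate numbers, so it does not show how the fit handles changes like those of the members. Values on each array are given for the 20 largest falls, genes with several member probe sets, the brightest 5 by control signal, and some others chosen after their values were seen. Also tried were constants of 1 and 64 and quantile and cyclic loess scaling, other filters and thresholds, crossed pairs, no trend, replicate number as a term, and leaving out each array.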

Additional observations from a re-analysis of the deposited data

How the results depend on the processing

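The rule fixes the direction of the members, so only sizes and counts are given. The median difference of the members was -1.10 with a constant of 64 and ran from -1.51 to -0.97 when 1 array was left out. It was -1.29 with a constant of 1, after quantile scaling and after cyclic loess scaling, against -1.23. The rule gave 76 probe sets, 49 with a constant of 64, 50 with the lowest 60% left out, 24 with crossed pairs (18 of them among the 76), and 138 to 216 when 1 array, and so 1 pair, was left out. It gave 103 with a fall of 0.8, 52 with a fall of 1, 111 with no filter, and 93 and 100 after quantile and cyclic loess scaling. Limma called 0 probe sets over all in each setting but 1: with the replicate block, the number as a term, it called 1512, 902 of them lower. Whether a replicate number stands for a shared preparation is not in the labels. Arrays with the same number deviated together (correlation 0.548 over probe sets), with 2 pairs only. The cause of these changes was not tested. Arrays limit precision through their number. The p-values of the main fit, which has no term for replicate number, weigh a difference against the spread of the arrays within groups.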
